A study of Caenorhabditis elegans with 11 samples.

Results

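Ascarosides are the pheromones of Caenorhabditis elegans: a dideoxysugar joined to a side chain that is made from a long fatty acid. Peroxisomal beta-oxidation shortens that side chain in repeated rounds, each with an acyl-CoA oxidase, a hydratase, a dehydrogenase and a thiolase. The products direct entry into the dauer larva, aggregation, and attraction and other responses between the sexes. The genes described here are acox-1.1, acox-1.2, acox-1.3, acox-1.4 and acox-3 for the oxidases, maoc-1 for the hydratase and daf-22 for the thiolase. They were chosen by name, with earlier results of these data known. Every probe set whose annotation gives only that gene was used. That rule found 5 probe sets, 1 each for 5 of the 7 genes, among 22548 probe sets tested. For acox-1.3 and acox-1.4 the platform's annotation lists only a probe set shared between them, so neither has a value. In the RefSeq gene table acox-1.1, acox-1.2, acox-1.3 and acox-1.4 are neighbours in a row. The labels name these genes only through the array, so their role in pheromone synthesis is background and was not measured.

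RNA of whole hermaphrodites was measured on Affymetrix C. elegans arrays, with 11 arrays in 4 groups by title. Hermaphrodites kept without RNAi are called glp-1 alone (n = 3) or, where males shared the plate, glp-1 plus males (n = 3). Those given utx-1 RNAi are called utx-1 RNAi alone (n = 3) and utx-1 RNAi plus males (n = 2, a further sample having given too little RNA). The hermaphrodites of all groups were glp-1(e2141) mutants, sterile at the higher temperature. They came from embryos raised at 15 °C and were kept from the first larval stage at 25 °C for 8 days on 10 cm plates with OP50 bacteria, either as 500 hermaphrodites or as 250 hermaphrodites with 250 wild-type males. RNA came from 200 hermaphrodites after the males were taken off, and samples of a condition are labelled as independent experiments. The labels name no empty-vector group, so knockdown of utx-1, which encodes a histone H3 lysine 27 demethylase, and RNAi feeding in itself cannot be told apart. The density of hermaphrodites differed along with the presence of males and cannot be told apart from it. The design asks what males change in hermaphrodites and whether that depends on utx-1.

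The values are log2 levels from RMA, a method that makes 1 value per probe set and array, and the number of arrays limits their precision. Array medians lay between 3.78 and 3.98. The 2 arrays of utx-1 RNAi plus males stood apart: their correlation with the other 9 was 0.961 to 0.983 across probe sets, against at least 0.986 among those 9. At the 9 germ line and oocyte markers their mean log2 level was 7.73 and 7.81, against 3.64 to 4.34 on all other arrays, and all 9 rose with males under utx-1 RNAi. The labels call these worms sterile. The knockdown was present in every RNAi array. At its dimmer probe set utx-1 fell by 2.47 ± 0.09 (SE) on the log2 scale without males (adjusted p = 1.27e-07, limma). With males it fell by 2.15 ± 0.10 (adjusted p = 8.47e-08). At its brighter probe set the differences were -6.55 ± 0.36 without males and -4.18 ± 0.40 with males. Under utx-1 RNAi that probe set was 3.28 ± 0.40 higher with males (adjusted p = 0.000114, limma). The dimmer was 0.32 ± 0.10 higher (adjusted p = 0.0476). The utx-1 signal was therefore unequal in the 2 RNAi groups, and its part in the differences between them was not tested.

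With males on the plate the fitted levels of daf-22, maoc-1, acox-1.1 and acox-3 were 1.14 to 1.33 times those without. Without RNAi, daf-22 and maoc-1 rose, and under utx-1 RNAi daf-22, maoc-1, acox-1.1 and acox-3 rose. None fell, against 6.15% and 9.03% of all probe sets. The calls are limma's with an adjusted p under 0.05 over all probe sets, and errors after ± are standard errors from that model where SD is not written. Without RNAi 2 of 5 probe sets were called higher, against 5.65% of all probe sets, and under utx-1 RNAi 4 of 5, against 11.8%. The median difference of the 5 was 0.25 without RNAi and 0.33 under utx-1 RNAi, where the medians over all 17118 genes were -0.01 and -0.03. None of the 5 passed the threshold for utx-1 RNAi against no RNAi, without or with males, against 0.164% and 14% of all probe sets.

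**Figure D1:**
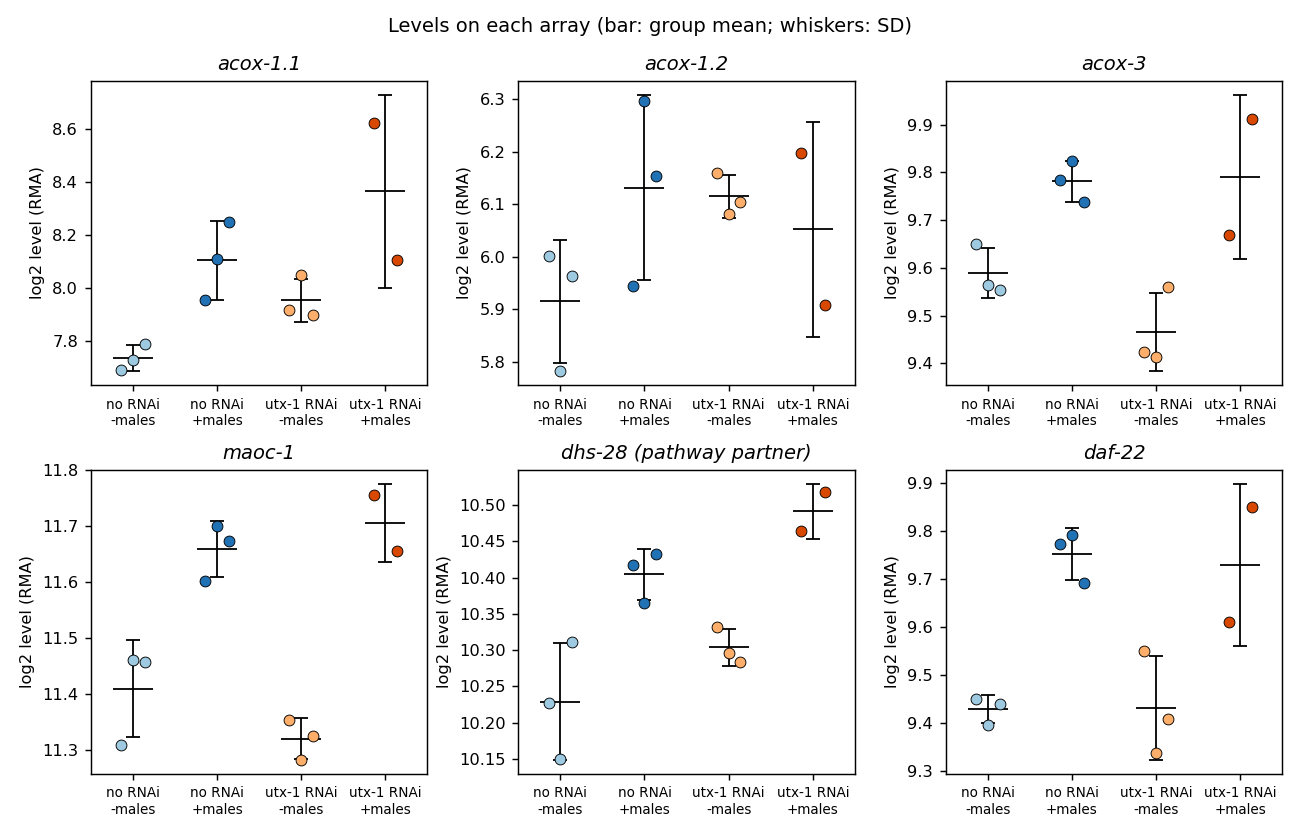
Log2 level (RMA, vertical axis, a separate range per panel) of 5 ascaroside synthesis genes and their pathway partner dhs-28 on each of 11 arrays by group (horizontal axis), with 1 point per array, the group mean as a bar and the SD as whiskers. For maoc-1, daf-22, acox-3 and dhs-28 every array with males lies above every array without them, by 0.14 for maoc-1 and by 0.06 or less for the others; acox-1.2 shows overlapping groups.

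Acyl-CoA oxidases open each round of shortening. The product of acox-1.1 acts on many ascarosides with the sugar near the end of the chain. The level of acox-1.1 was 7.69, 7.73 and 7.79 in glp-1 alone and 7.95, 8.11 and 8.25 in glp-1 plus males. It was 7.92, 8.05 and 7.90 in utx-1 RNAi alone and 8.62 and 8.11 in utx-1 RNAi plus males. In each RNAi state the arrays with males lay above those without, but the lowest array with males lay below the highest array of utx-1 RNAi alone. The difference with males was 0.37 ± 0.12 without RNAi, which did not pass (adjusted p = 0.0708, limma), and 0.41 ± 0.14 under utx-1 RNAi, which did (adjusted p = 0.0492), or 1.33-fold. This was the widest of the 5 differences in each state, and the least settled: without replicate 1 of utx-1 RNAi plus males it was 0.15 (adjusted p = 0.562). Leaving out any 1 of the other arrays except replicate 3 of either group with males also ended the call, at adjusted p from 0.05004 to 0.119. So did a fit of only the groups compared (adjusted p = 0.0977), and 5 of 18 alternatives kept the call. Without RNAi the adjusted p went down to 0.0206 when either array of utx-1 RNAi plus males, or both, were left out.

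The gene acox-3 also encodes an acyl-CoA oxidase and lies outside the row of acox-1.1 to acox-1.4. The acox-3 level was 9.65, 9.56 and 9.55 in glp-1 alone and 9.78, 9.82 and 9.74 with males. Under utx-1 RNAi it was 9.42, 9.41 and 9.56 without males and 9.67 and 9.91 with them. All 5 arrays with males exceeded all 6 without, with a gap of 0.02 between the nearest arrays. The difference was 0.19 ± 0.08 without RNAi (adjusted p = 0.156, limma) and 0.33 ± 0.09 under utx-1 RNAi (adjusted p = 0.0236), a rise of 1.25-fold in the second case. That call ended without replicate 1 or 2 of utx-1 RNAi alone (adjusted p = 0.0729 and 0.0631) and without replicate 3 of utx-1 RNAi plus males (0.20, adjusted p = 0.221). It also ended with only the groups compared (adjusted p = 0.0777), with arrays centred on their medians and with a replicate block. In all, 12 of 18 alternatives kept it.

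By contrast acox-1.2, whose product acts on ascarosides with the sugar at the very end of the chain, passed in no comparison. It read 6.0, 5.78 and 5.96 in glp-1 alone, 5.94, 6.30 and 6.15 with males, 6.16, 6.08 and 6.10 in utx-1 RNAi alone, and 6.20 and 5.91 with males. The groups overlap with and without males in each RNAi state. Its difference with males was 0.22 ± 0.11 without RNAi (95% interval -0.01 to 0.45) and -0.06 ± 0.12 under utx-1 RNAi (-0.32 to 0.19). The first interval includes the 0.19 of acox-3 without RNAi. The second ends below the 0.33 of acox-3 under utx-1 RNAi but overlaps the 95% interval of acox-3 (0.13 to 0.52). Differences between genes were not tested. Of the 5, acox-1.2 alone had a difference below 0 under utx-1 RNAi, and its sign turned to 0.08 without replicate 3 of utx-1 RNAi plus males.

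The hydratase gene maoc-1 had the clearest separation. Its level was 11.31, 11.46 and 11.46 in glp-1 alone and 11.60, 11.70 and 11.67 with males, and 11.35, 11.28 and 11.33 against 11.76 and 11.66 under utx-1 RNAi. The lowest array with males was 0.14 above the highest array without, and this order also held with arrays centred on their medians. It rose by 0.25 ± 0.07 without RNAi (adjusted p = 0.0433, limma) and by 0.39 ± 0.08 under utx-1 RNAi (adjusted p = 0.0049), or 1.19-fold and 1.31-fold. Without RNAi the call was marginal: leaving out any 1 of the 11 arrays ended it, at adjusted p from 0.0506 to 0.156 and differences from 0.20 to 0.28. That call also ended with only the groups compared (adjusted p = 0.0818) and with arrays centred on their medians (0.0546). Under utx-1 RNAi it ended only without replicate 1 of utx-1 RNAi plus males (0.34, adjusted p = 0.0746) and was kept in the other 17 of 18 alternatives.

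The thiolase DAF-22 makes the final cut of each round, and mutants that lack it make no short-chain ascarosides. The level of daf-22 was 9.45, 9.40 and 9.44 in glp-1 alone and 9.77, 9.79 and 9.69 with males. Under utx-1 RNAi it was 9.55, 9.34 and 9.41 without males and 9.61 and 9.85 with males. Every array with males was above every array without, by at least 0.06. It rose by 0.32 ± 0.08 without RNAi (adjusted p = 0.027, limma) and by 0.30 ± 0.09 under utx-1 RNAi (adjusted p = 0.0396), which are 1.25-fold and 1.23-fold. The first call ended without replicate 1, 2 or 3 of glp-1 alone or replicate 1 or 2 of glp-1 plus males (adjusted p = 0.0623 to 0.0872, differences 0.304 to 0.335). The second ended without replicate 2 or 3 of either group without males or replicate 1 or 2 of glp-1 plus males (adjusted p = 0.0531 to 0.109). Without replicate 3 of utx-1 RNAi plus males it was 0.18 (adjusted p = 0.307). The second call also ended with only the groups compared (adjusted p = 0.111) and with arrays centred on their medians (0.14). The first was kept in 13 of 19 alternatives and the second in 7 of 18.

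The dehydrogenase of the round is encoded by dhs-28, which was not among the 7 genes chosen but belongs to the same chain of enzymes. At its brighter probe set it read 10.23, 10.15 and 10.31 in glp-1 alone, 10.42, 10.37 and 10.43 with males, 10.33, 10.30 and 10.28 in utx-1 RNAi alone, and 10.46 and 10.52 with males. The arrays with males were again all above those without. The differences of 0.18 ± 0.07 without RNAi and 0.19 ± 0.08 under utx-1 RNAi did not pass (adjusted p = 0.123 and 0.105, limma). At its dimmer probe set, where the arrays also did not overlap, dhs-28 rose under utx-1 RNAi by 0.25 ± 0.07 (adjusted p = 0.0356), a call kept in 6 of 18 alternatives. Without RNAi that probe set gave 0.10 ± 0.07 (adjusted p = 0.418).

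Counted together, 4 of the 5 ascaroside probe sets (daf-22, maoc-1, acox-1.1 and acox-3) had no overlap and were higher with males without RNAi, against 14.4% of all probe sets. The same 4 did so under utx-1 RNAi, against 22.1%, so that 4 of 5 were separated in both states, against 6.59% of all probe sets. Over all 11 arrays 3 of 5 had every array with males above every array without, against 4.33%. The 5 all have a mean level of at least 5. Among probe sets with such a mean these shares were higher: 20.6% without RNAi, 30.1% under utx-1 RNAi, 12.7% in both states and 8.88% over all 11 arrays. Centring each array on its median lowered every difference by 0.12 under utx-1 RNAi, and then 1 of 5 was separated in both states, against 4.23%, and 1 of 5 over all arrays, against 2.74%: maoc-1 in each case. Without RNAi 4 of 5 stayed separated after centring, against 13.6%.

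**Figure D2:**
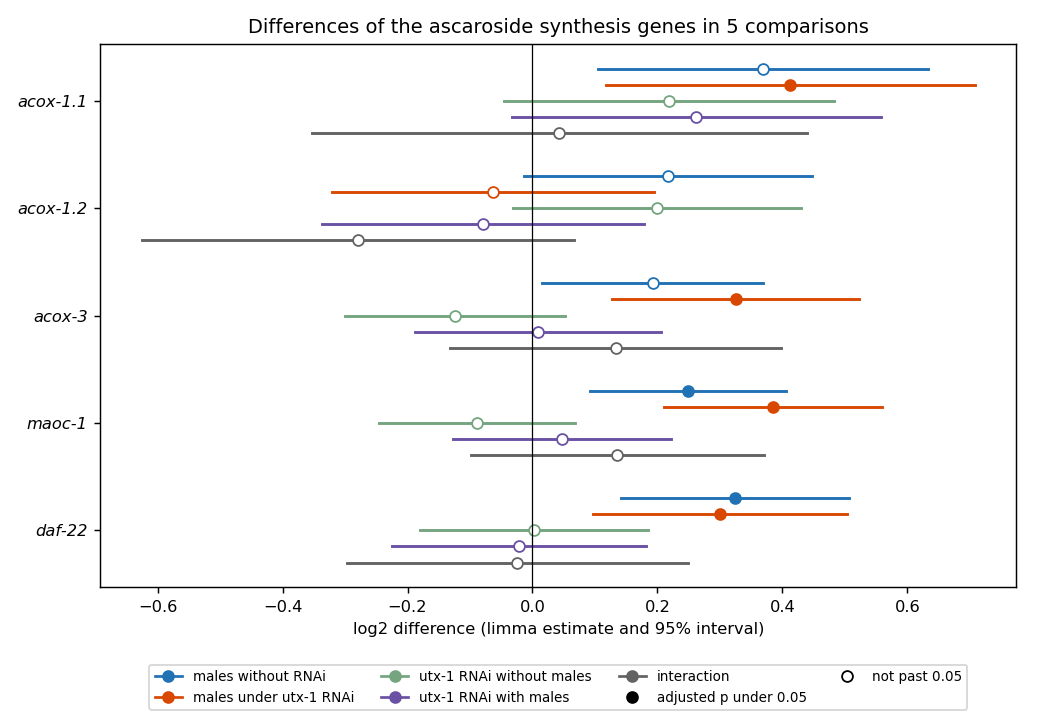
Log2 difference (horizontal axis; limma estimate as a point, 95% interval as a line) of 5 ascaroside synthesis genes in 5 comparisons, with filled points for an adjusted p under 0.05. The filled points belong to males without RNAi (maoc-1 and daf-22) and males under utx-1 RNAi (acox-1.1, acox-3, maoc-1 and daf-22), and the intervals of the utx-1 RNAi comparisons and of the interaction all include 0.

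For utx-1 RNAi against no RNAi, 0 of the 5 genes were called. With so few genes, this is close to what the shares over all probe sets given below would yield. Without males the differences between utx-1 RNAi and no RNAi ran from -0.12 ± 0.08 for acox-3 to 0.22 ± 0.12 for acox-1.1, with 0 of 5 past limma's threshold (adjusted p = 0.364 to 0.993) and 0 at an unadjusted p under 0.05. In that comparison 0.164% of all probe sets were called in either direction. For acox-1.1 and acox-1.2 the 3 arrays of utx-1 RNAi alone did lie above the 3 of glp-1 alone, against 7.55% of all probe sets. For daf-22 the difference was 0.00 ± 0.08, with a 95% interval from -0.18 to 0.18. With males the differences ran from -0.08 ± 0.12 for acox-1.2 to 0.26 ± 0.14 for acox-1.1, and 0 of 5 passed limma's threshold or an unadjusted p under 0.05, where 14% of all probe sets were called. Only acox-1.1 passed in an alternative, at 0.52 without replicate 3 of utx-1 RNAi plus males (adjusted p = 0.0189).

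The interaction, the difference with males under utx-1 RNAi minus that without RNAi, passed for 0 of 5 (adjusted p = 0.37 to 0.945, limma; 0 at an unadjusted p under 0.05), against 7.65% of all probe sets. It was -0.02 ± 0.13 for daf-22 (95% interval -0.30 to 0.25), 0.14 ± 0.11 for maoc-1 (-0.10 to 0.37) and 0.13 ± 0.12 for acox-3 (-0.13 to 0.40). For acox-1.1 it was 0.04 ± 0.18 (-0.35 to 0.44), and for acox-1.2 -0.28 ± 0.16 (-0.62 to 0.07). For daf-22, maoc-1, acox-3 and acox-1.1 no interval reached as far below 0 as that gene's difference without RNAi lay above it, while those of maoc-1, acox-3 and acox-1.1 included a gain of that size. The interval of acox-1.2 reached further below 0 than its difference of 0.22 lay above it.

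By group means, maoc-1 and acox-3 had the same order, from utx-1 RNAi alone through glp-1 alone and glp-1 plus males to utx-1 RNAi plus males. In each, the step from glp-1 alone to glp-1 plus males was the only 1 between neighbours whose arrays did not overlap. For daf-22 the groups without males were 9.43 ± 0.03 (glp-1) and 9.43 ± 0.11 (utx-1 RNAi; SD, n = 3 each), and those with males 9.73 ± 0.17 (utx-1 RNAi; SD, n = 2) and 9.75 ± 0.05 (glp-1; SD, n = 3), with no overlap between the second and the third. The order for acox-1.1 was glp-1 alone, utx-1 RNAi alone, glp-1 plus males and utx-1 RNAi plus males, and only the first step showed no overlap. For acox-1.2 all neighbours overlapped.

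Across the 11 arrays daf-22 and acox-3 were alike (r = 0.87), as were daf-22 and maoc-1 (r = 0.81) and maoc-1 and acox-3 (r = 0.77). The lowest were acox-1.2 and acox-3 (r = -0.01) and acox-1.2 and daf-22 (r = 0.21). The arrays fall into 4 groups, so these values mostly restate the group means. Within groups, as deviations from the group mean, acox-1.1 went opposite to acox-3 (r = -0.82) and to daf-22 (r = -0.79), while daf-22 and acox-3 went together (r = 0.59). In the 2 arrays of utx-1 RNAi plus males, acox-1.1 was higher in replicate 1 than in replicate 3, and acox-3 and daf-22 were lower. Deviations in a group of 2 mirror each other, and those of acox-1.1 were its widest. The negative values therefore rest largely on these 2 arrays.

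Among all genes with a mean level of at least 5, those most like daf-22 over the 11 arrays were lea-1 (r = 0.94), slfl-5 (r = 0.94) and hacl-1 (r = 0.93). The nearest to maoc-1 were swan-2 (r = 0.98), tag-120 (r = 0.98) and istr-1 (r = 0.97). Those nearest to acox-3 were cyld-1 (r = 0.96), arf-1 (r = 0.93) and the yolk protein gene vit-2 (r = 0.92). For acox-1.1 they were cki-1, an inhibitor of cyclin-dependent kinases (r = 0.97), crn-4 (r = 0.97) and T28D9.1 (r = 0.96). The best matches of acox-1.2 were lower, with ddl-1 (r = 0.83), the MAP kinase gene mpk-1 (r = 0.83) and B0303.7 (r = 0.82). No gene of the 7 was among these 15.

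Of the other genes of the pathway, acs-7 rose and acox-1.5 fell by more than any of the 5 changed. In a list of 7 related enzymes 2 rose and 1 fell with males in each RNAi state, with medians of 0.09 without RNAi and 0.10 under utx-1 RNAi. The acyl-CoA synthetase gene acs-7, whose product activates ascaroside side chains, read 6.27, 7.09 and 7.33 in glp-1 alone and 8.71, 8.91 and 9.01 with males, and 7.14, 6.79 and 7.12 against 8.61 and 8.19 under utx-1 RNAi. It rose by 1.98 ± 0.22 (adjusted p = 0.000653, limma) and by 1.38 ± 0.25 (adjusted p = 0.00201), or 3.94-fold and 2.60-fold. A further acyl-CoA oxidase, acox-1.5, read 8.39, 7.64 and 7.72 without males and 6.90, 7.01 and 6.36 with males, and 7.62, 7.36 and 7.48 against 5.64 and 6.54 under utx-1 RNAi. It fell by 1.16 ± 0.25 (adjusted p = 0.0113) and by 1.4 ± 0.28 (adjusted p = 0.00355), opposite in direction to acox-1.1 and acox-3. The second of these calls ended without replicate 1 of utx-1 RNAi plus males (-0.95, adjusted p = 0.0637). The lipid transfer protein gene nlt-1 rose by 0.38 ± 0.07 (adjusted p = 0.00695) and by 0.26 ± 0.08 (adjusted p = 0.0442), the latter kept in 4 of 18 alternatives.

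Carboxylesterases attach further groups to ascarosides. Of 5 measured without RNAi, cest-2.2 rose with males by 0.75 ± 0.08 (adjusted p = 0.000616, limma), and cest-8 and cest-1.1 fell by 0.51 ± 0.10 and 0.48 ± 0.12 (adjusted p = 0.00723 and 0.0227). Their signals were low: each had a mean level under 5, and cest-2.2 at 3.39 to 4.29 lay around the array medians. The cest-8 call was kept in all 18 alternatives, and that of cest-1.1 ended without replicate 1 or 2 of glp-1 alone or replicate 1 or 3 of glp-1 plus males (adjusted p = 0.0519 to 0.084). Under utx-1 RNAi cest-8 alone passed, with a fall of 0.50 ± 0.11 (adjusted p = 0.00708; 0.0982 without replicate 1 of utx-1 RNAi plus males). The list's medians were -0.22 and -0.15. Of 7 ascaroside receptor genes 0 passed with males without RNAi and 0 had an unadjusted p under 0.05, and under utx-1 RNAi daf-38, which encodes a dauer pheromone receptor, fell by 0.45 ± 0.09 (adjusted p = 0.00378; 0.0745 without replicate 1 of utx-1 RNAi plus males). These receptors act in a few neurons, and daf-38 levels of 2.95 to 3.58 lay below every array median.

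**Figure D3:**
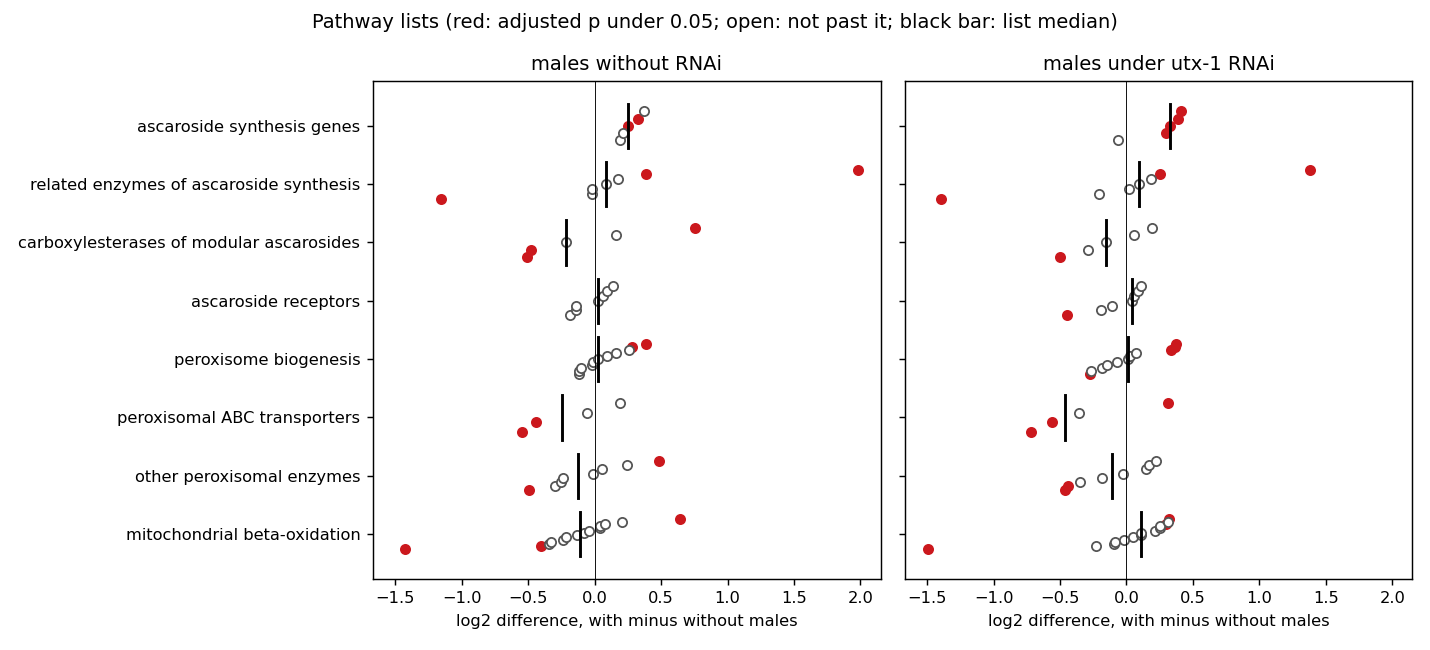
Log2 difference with minus without males (horizontal axis) of the genes of 8 lists (vertical axis) without RNAi (left) and under utx-1 RNAi (right), with 1 point per gene, red for an adjusted p under 0.05 and open otherwise, and the list median as a black bar. The ascaroside synthesis genes lie at 0.19 to 0.37 without RNAi and at -0.06 to 0.41 under utx-1 RNAi, while the related enzymes span -1.16 to 1.98 and -1.4 to 1.38.

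The wider set of peroxisomal genes did not move in 1 direction. Among 11 peroxisome biogenesis genes 2 rose and 0 fell with males without RNAi (median 0.02), and 3 rose and 1 fell under utx-1 RNAi (median 0.01). The peroxin genes prx-11 and prx-14 rose by 0.39 ± 0.09 and 0.28 ± 0.07 without RNAi (adjusted p = 0.0155 and 0.0255, limma) and by 0.37 ± 0.10 and 0.33 ± 0.08 under utx-1 RNAi (adjusted p = 0.0178 and 0.0106). Without RNAi the prx-11 call ended without replicate 1 or 2 of glp-1 alone or replicate 3 of glp-1 plus males (adjusted p = 0.0569 to 0.063), and that of prx-14 without replicate 1 or 2 of glp-1 alone or any replicate of glp-1 plus males (0.0597 to 0.101). Under utx-1 RNAi prx-11 was lost without replicate 3 of utx-1 RNAi alone (adjusted p = 0.0559) or replicate 1 of utx-1 RNAi plus males (0.202), and prx-14 without replicate 1 or 3 of the latter group (0.0704 and 0.057). Of 4 genes listed as peroxisomal ABC transporters 2 fell without RNAi, and under utx-1 RNAi 2 fell and 1 rose. Here pmp-5 fell by 0.55 ± 0.09 (adjusted p = 0.00404) and by 0.72 ± 0.10 (adjusted p = 0.000403), and was kept in all 19 and all 18 alternatives. Among 8 other peroxisomal enzymes 1 rose and 1 fell without RNAi, the ether lipid gene acl-7 by 0.49 ± 0.11 (adjusted p = 0.0174) and the catalase gene ctl-2, which fell by 0.49 ± 0.14 (adjusted p = 0.0365). The acl-7 call ended without replicate 2 or 3 of glp-1 alone or replicate 3 of glp-1 plus males (adjusted p = 0.0563 to 0.0693), and that of ctl-2 without replicate 1 or 3 of glp-1 alone or any replicate of glp-1 plus males (0.0647 to 0.139). Under utx-1 RNAi 0 rose and 2 fell.

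Mitochondrial beta-oxidation shortens the fatty acids used for energy. Of 14 genes listed for it, 1 rose and 2 fell with males without RNAi (median -0.11) and 2 rose and 1 fell under utx-1 RNAi (median 0.11). The 2 that rose under utx-1 RNAi were acdh-12 and ivd-1, and the latter encodes an enzyme of leucine breakdown. The hydroxyacyl-CoA dehydrogenase gene hacd-1 fell by 1.43 ± 0.30 (adjusted p = 0.0104, limma) and by 1.5 ± 0.33 (adjusted p = 0.00717), the latter being -0.96 (adjusted p = 0.123) without replicate 1 of utx-1 RNAi plus males. Without RNAi ech-1.1 rose by 0.64 ± 0.13 (adjusted p = 0.00846) and ech-6 fell by 0.41 ± 0.08 (adjusted p = 0.00715). Over all genes 5.61% rose and 6.86% fell with males without RNAi, and 12.4% and 9.53% under utx-1 RNAi.

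Markers of the tissues in the worm moved beside these differences. Intestine and epidermis are known as main sites of ascaroside synthesis. The summed linear signal of 6 intestinal markers was 2384 to 2741 in glp-1 alone and 2920 to 3131 with males, and 2871 to 2993 against 3329 to 3670 under utx-1 RNAi. The mean log2 level of the same 6 was 8.11 to 8.25 against 8.12 to 8.19, and 8.32 to 8.40 against 8.15 to 8.28. In each RNAi state act-5 and erm-1 rose, ges-1 fell, and 3 of 6 did not pass (in glp-1 elt-2 at -0.04, ifb-2 at 0.21 and pept-1 at -0.50). The 5 epidermal markers had a mean log2 level of 4.46 to 4.77 without males and 4.06 to 4.33 with males, and 4.46 to 4.62 against 4.28 to 4.40 under utx-1 RNAi. Of these col-19 fell in each state, by 1.24 and by 1.09, and under utx-1 RNAi elt-3 also fell and nhr-23 rose. The 6 muscle markers lay at 6.08 and 6.36 in utx-1 RNAi plus males, against 6.67 to 7.05 elsewhere, and 4 of 6 fell there. The 29 sperm and male markers had means of 3.96 to 4.21 without males and 4.19 to 4.61 with males, and 3.69 to 4.04 against 3.8 to 3.82 under utx-1 RNAi, and the sperm gene spe-11 alone rose in each state. Array levels have no true zero, and in RNA of whole worms fewer cells of a type and less RNA per cell cannot be told apart. The part of these tissue signals in the differences of daf-22, maoc-1, acox-1.1 and acox-3 was not tested. The germ line markers were low in both glp-1 groups, at 3.83 to 4.34, and 1 of the 9 (glh-1) rose and 1 (htp-3) fell there with males.

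**Figure D4:**
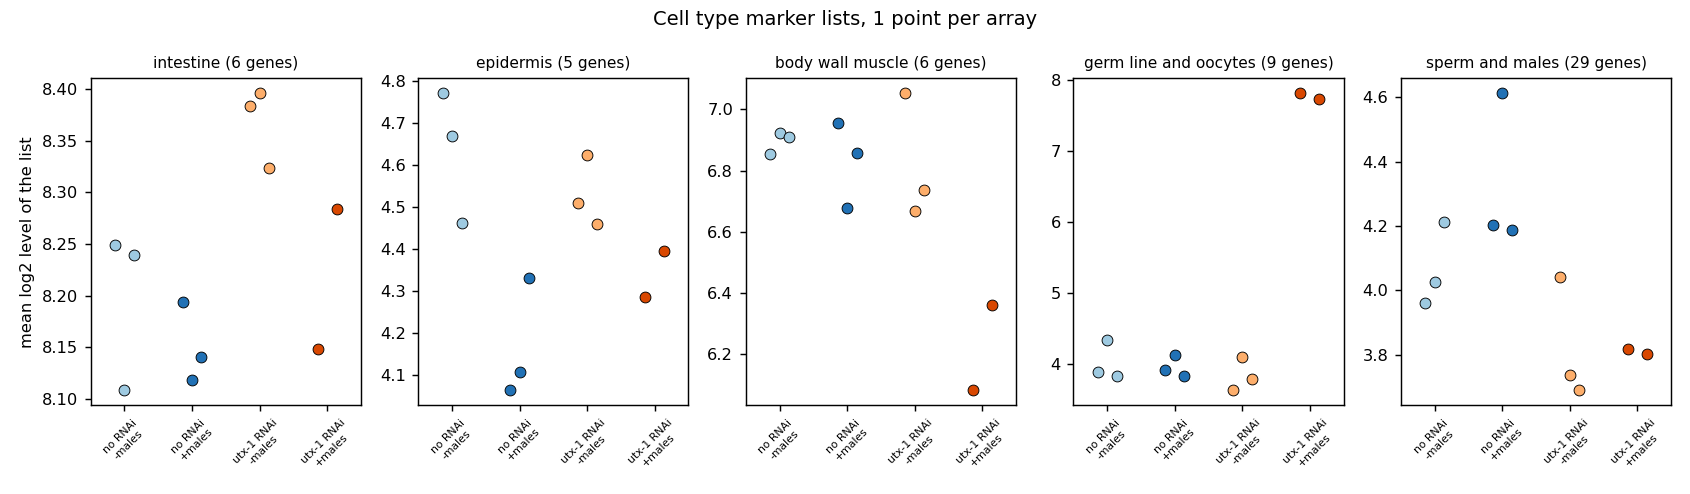
Mean log2 level (vertical axis, a separate range per panel) of 5 lists of cell type markers, with 1 point per array by group (horizontal axis). The germ line and oocyte list reads 7.73 and 7.81 in utx-1 RNAi plus males and 3.64 to 4.34 on the other 9 arrays, and the muscle list is lowest in the same 2 arrays.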

How the data were processed

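Each deposited table cell is a log2 expression level. Per the submitters' processing notes, the authors used RMA; settings, version and the arrays run together are not named. Of 22625 probe sets, 77 controls were left out. The platform annotation gave 1 symbol for 20766, several for 887 and none for 895. Of these symbols 20701 were updated by gene ID through the RefSeq gene table of WBcel235, used for names and neighbours only. A mean per group was estimated from the 11 arrays (limma 3.58.1 under R 4.3.3; lmFit, contrasts.fit, eBayes; 7 residual and 4.84 prior degrees of freedom), a procedure tested on simulated data. Benjamini-Hochberg adjustment ran over 22548 probe sets per comparison, with a threshold of 0.05. Lists use a gene's brightest probe set, and up to 3 genes of a list with the smallest p are named, plus dhs-28; the likeness rule took the 3 genes with the highest r. The genes and lists were chosen with earlier results of these data known. Alternatives were another prior, scaling, filter or weighting, a replicate block, fits of fewer groups, and leaving out each array. Leaving out both arrays of utx-1 RNAi plus males, and counting separated arrays by setting, were added after the data were seen. Group and replicate follow the titles; descriptions number 2 arrays differently.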

Additional observations from a re-analysis of the deposited data

Results flagged for a closer look

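The difference with males itself differed between the RNAi states (limma interaction, under utx-1 RNAi minus without RNAi) for 1725 of 22548 probe sets. Among the cell type markers these included all 9 of germ line and oocytes, 2 of 6 of muscle and 1 of 5 of epidermis. In the pathway lists and the knockdown check, 0 of the 5 ascaroside synthesis genes and the following 4 probe sets were among them. For cest-2.2 it was -0.56 ± 0.13 (adjusted p = 0.0153): levels were 3.48, 3.45 and 3.55 in glp-1 alone, 4.26, 4.19 and 4.29 with males, 3.66, 3.39 and 3.46 in utx-1 RNAi alone, and 3.62 and 3.77 with males. For daf-38 it was -0.58 ± 0.12 (adjusted p = 0.00931), with arrays at 3.21 to 3.30, 3.30 to 3.44, 3.43 to 3.58 and 2.95 to 3.15 in the same order. Without replicate 1 of utx-1 RNAi plus males these became -0.49 (adjusted p = 0.093) and -0.48 (adjusted p = 0.0664). For ivd-1, an enzyme of leucine breakdown, it was 0.51 ± 0.10 (adjusted p = 0.00714), with arrays at 7.24 to 7.38, 7.04 to 7.09, 7.03 to 7.09 and 7.34 to 7.39. For utx-1 at its brighter probe set it was 2.37 ± 0.54 (adjusted p = 0.0179), with 11.54 to 12.45, 12.58 to 13.09, 4.81 to 6.42 and 8.40 to 9.06. All 4 involve the 2 arrays with the germ line signal, whose part was not tested.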

How the results depend on the processing

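Of 48 called results 13 were kept in every alternative run, and 0 turned direction. The 13 include no call of the 5 ascaroside synthesis genes. With males without RNAi daf-22 was kept in 13 of 19 alternatives and maoc-1 in 4 of 19. With males under utx-1 RNAi maoc-1 was kept in 17 of 18, acox-3 in 12, daf-22 in 7 and acox-1.1 in 5. Counts of calls also moved. The ascaroside probe sets called were 2 with males without RNAi (0 to 2 when any 1 array was left out, 1 with arrays centred on their medians), 4 with males under utx-1 RNAi (1 to 4 with an array left out, 1 when centred, 1 with only the groups compared), and 0 in the interaction (0 to 0) and with utx-1 RNAi without males (0 to 0) or with males (0 to 1). Over all probe sets, males without RNAi gave 2661 calls (1362 to 2732 with an array left out), males under utx-1 RNAi 4707 (2028 to 4867; 7565 centred), utx-1 RNAi without males 37 (5 to 59; 96 with a trended robust prior, 18 with only the groups compared, 92 at a mean of at least 5, 64 centred, 93 quantile normalized, 65 with array weights), utx-1 RNAi with males 3165 (1476 to 3218; 1579 at a mean of at least 5, 5012 centred) and the interaction 1725 (1137 to 1706; 659 at a mean of at least 5). The share of calls that were higher went, from the values as deposited to centred and to quantile normalized, from 56.7% to 26.6% and 42.7% for males under utx-1 RNAi, from 21.6% to 56.2% and 46.2% for utx-1 RNAi without males, from 63.9% to 36.4% and 49.7% for utx-1 RNAi with males, and from 83.9% to 50.4% and 63.9% for the interaction; for males without RNAi it was 47.9%, 44% and 46.9%. Centring shifted the interaction by -0.11 and males under utx-1 RNAi by -0.12. Replicate numbers of the titles did not pair the samples (same-number deviations correlated at -0.35 to 0.05); with the replicate block 1552, 3564, 6, 2302 and 1303 probe sets were called in the order above, and 0 and 1 ascaroside probe sets with males without RNAi and under utx-1 RNAi.

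The signs that turned all belong to differences not past the threshold either way, and the cause was not tested. Centred, utx-1 RNAi with males gave -0.023 for maoc-1, -0.062 for acox-3 and -0.062 for the dimmer dhs-28 probe set, and the interaction -0.067 for acox-1.1 and -0.098 for the brighter dhs-28 probe set. Quantile normalization gave 0.019 for daf-22 and array weights -0.00082 for acox-3 (utx-1 RNAi with males), and the replicate block -0.0091 for dhs-28 (interaction). With 1 array left out, daf-22 reached -0.057 to 0.050 for utx-1 RNAi without males, -0.14 to 0.10 with males and -0.14 to 0.10 in the interaction. For utx-1 RNAi with males maoc-1 ran from -0.0022 to 0.10, acox-1.2 from -0.22 to 0.065, acox-3 from -0.11 to 0.13 and the dimmer dhs-28 probe set from -0.0067 to 0.030. In the interaction acox-1.1 ran from -0.22 to 0.30 and dhs-28 from -0.029 to 0.052, and with males under utx-1 RNAi acox-1.2 ran from -0.21 to 0.081. Each of the 5 genes has 1 probe set of its own, so the brightest and the mean probe set could not differ. The search of promoters for motifs was not run. With 2 or 3 arrays a group, the number of arrays limits what could be detected, by an amount that differs between genes.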
